A study of Homo sapiens with 18 samples.

Results

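The MHC class I antigen presentation genes were measured in BJ fibroblasts, a line from human skin, after the level of PURPL, a long noncoding RNA, had been raised or lowered. The set holds 9 genes, chosen by their known roles: HLA-B, HLA-C, B2M, TAP1, TAP2, TAPBP, PSMB8, PSMB9 and NLRC5. All 9 are listed among the 61544 genes of both deposited count tables, and 8 passed the filter on low counts in each table. The exception was TAP2, which had 0 counts in all 18 libraries.

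Poly(A) RNA was sequenced from 6 groups of 3 libraries. In the overexpression experiment, PURPL#1-OE and PURPL#2-OE cells, which overexpress PURPL, were compared with their own control, Ctrl. In the knockdown experiment, cells with the guide sgRNA-PURPL#1 or sgRNA-PURPL#2 were compared with sgCtrl cells, the corresponding control. The guides direct CRISPR interference, a method that blocks transcription of a chosen gene without cutting it. All groups share the BJ background, and the series asks how PURPL bears on senescence, a lasting arrest of cell division. The labels do not say whether the groups are clones, which constructs the numbers of the OE groups denote, or whether libraries came from separate cultures, so p-values measure the spread between these libraries, which may be technical. Total counts ran from 18858976 to 27985649 per library in the overexpression table and from 11444513 to 12896040 in the knockdown table. Levels are in CPM, which divides each count by its library's total after TMM scaling within a table. They are not corrected for gene length, so levels of different genes are not compared.

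PURPL itself followed the labels. Its level was 166 to 178 CPM in PURPL#1-OE libraries and 114 to 129 CPM in PURPL#2-OE libraries, against 59.2 to 67.3 CPM in Ctrl libraries. In the knockdown table it was 14.1 to 17.9 CPM with sgRNA-PURPL#1 and 17.9 to 21.5 CPM with sgRNA-PURPL#2, against 71.1 to 94.3 CPM in sgCtrl libraries. Fibroblast markers summed to at least 15466 CPM in every library, whereas the 8 leukocyte markers summed to at most 2.35 CPM, with CD3E, MS4A1 and NKG7 at 0 in Ctrl and PURPL#1-OE libraries.

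MHC class I molecules display peptides from inside the cell to cytotoxic T cells. In this pathway the proteasome cuts proteins into peptides, the TAP transporter carries the peptides into the endoplasmic reticulum, and tapasin helps to load them onto a heavy chain paired with beta-2 microglobulin. Interferons raise the pathway's genes, in part through IRF1 and through NLRC5, an activator that works at class I promoters together with the RFX complex. In fibroblasts class I molecules are made at a basal level, and interferon replaces catalytic subunits of the constitutive proteasome by immunoproteasome subunits.

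Of the members, 7 lie on chromosome 6 (build hg38, spans as deposited, whole genes with exons, introns and UTRs). HLA-C (chr6:31268749-31272130, minus strand) and HLA-B (chr6:31353872-31367067, minus strand) encode classical heavy chains. They are near-identical in much of their sequence, and since no source used here says how reads with more than one placement were handled, the split of reads between them is uncertain. TAP2 (chr6:32821833-32838739), PSMB8 (chr6:32840717-32844679) and TAP1 (chr6:32845209-32853816) on the minus strand and PSMB9 (chr6:32844136-32859851) on the plus strand form a cluster, in which the span of TAP1 lies inside that of PSMB9 on the opposite strand. TAPBP is at chr6:33299694-33314254 on the minus strand. B2M is on chromosome 15 (chr15:44711358-44718851, plus strand) and NLRC5 on chromosome 16 (chr16:56989485-57083531, plus strand).

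The zero of TAP2, the second chain of the peptide transporter, is no measure of its RNA. Its span lies wholly inside a longer protein-coding entry on the same strand (chr6:32813767-32838822), which had 3 counts in all 18 libraries together. Of the 9429 genes of these tables that lie inside a same-strand gene, 0 had a count in any library. HLA-B overlaps the pseudogene DHFRP2 on the same strand over 47.0% of its deposited span, and PSMB9 overlaps PSMB8-AS1 over 15.05%, so reads of the overlaps may have been lost. Both overlaps lie wholly upstream of the RefSeq start of the gene (chr6:31357179 for HLA-B, chr6:32854192 for PSMB9). They do not touch the part of either gene downstream of that start.

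Promoters of several members hold short sequences of the kind known as interferon response elements, and 5 of them are shown for this reason. RefSeq's promoter windows (GRCh38.p14, 250 bases before to 50 after each start) were matched by symbol for 8 of the 9 members, in 10 windows, with none for NLRC5. The window of PSMB9 holds no match to TTTCNNTT, the short form searched for. Printed 5′ to 3′ on the gene's strand, with matches to TTTCNNTT or its reverse complement in capitals, the stretches upstream of the start are as follows.
HLA-B: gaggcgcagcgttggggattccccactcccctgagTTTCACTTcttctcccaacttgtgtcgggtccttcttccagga
HLA-C: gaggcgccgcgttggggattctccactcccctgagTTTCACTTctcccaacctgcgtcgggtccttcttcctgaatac
B2M: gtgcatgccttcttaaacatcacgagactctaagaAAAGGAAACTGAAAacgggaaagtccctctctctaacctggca
TAP1: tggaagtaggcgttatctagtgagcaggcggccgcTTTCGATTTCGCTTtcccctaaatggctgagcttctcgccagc
TAPBP: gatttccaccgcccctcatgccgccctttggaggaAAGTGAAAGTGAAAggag
These stretches are chr6:31357292-31357369, chr6:31272201-31272278, chr6:32853796-32853873 and chr6:33314079-33314131 on the minus strand and chr15:44711340-44711417 on the plus strand. In HLA-B and HLA-C the capitals are a single match, TTTCACTT, which begins 155 and 151 bases before the start. In B2M, TAP1 and TAPBP 2 overlapping matches run together, and each holds the longer form, in which TTTC is followed after any 2 bases by TTTC, or its reverse complement. Searched on both strands, TTTCNNTT, which every match to the longer form contains, was found in 7 of the 10 windows of the members and in 22.8% of 35116 promoter windows of all genes. The longer form was found in 5 of the 10 windows, against 3.57% of all windows. A form of the NF-kappaB site (GGG, any 2 bases, TT, any base, CC) was in 4 of 10 windows against 5.68%, CCAAT in 5 of 10 against 34.6%, and TGACG in 6 of 10 against 24.6%. A match is a description of the sequence and not evidence of binding.

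In PURPL-overexpressing cells the measured class I genes fell together. All 8 tested members were lower than in Ctrl in PURPL#1-OE and in PURPL#2-OE cells (edgeR's quasi-likelihood test, Benjamini-Hochberg adjusted p below 0.05). Over all 15267 genes tested, 39.6% were called in PURPL#1-OE and 38.5% in PURPL#2-OE cells, and 20.1% and 19.6% were called lower. The median log2 fold change of the 8 members was -1.27 and -1.37, against 0.0076 and 0.0069 over all genes tested. The transporter chain TAP1, the immunoproteasome subunit PSMB9 and the heavy chain HLA-B fell most, to between 22.1% and 30.9% of Ctrl, and TAPBP fell least. RNA was taken from whole cultures, so fewer cells that express a gene and less RNA per cell cannot be told apart.

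**Figure D1:**
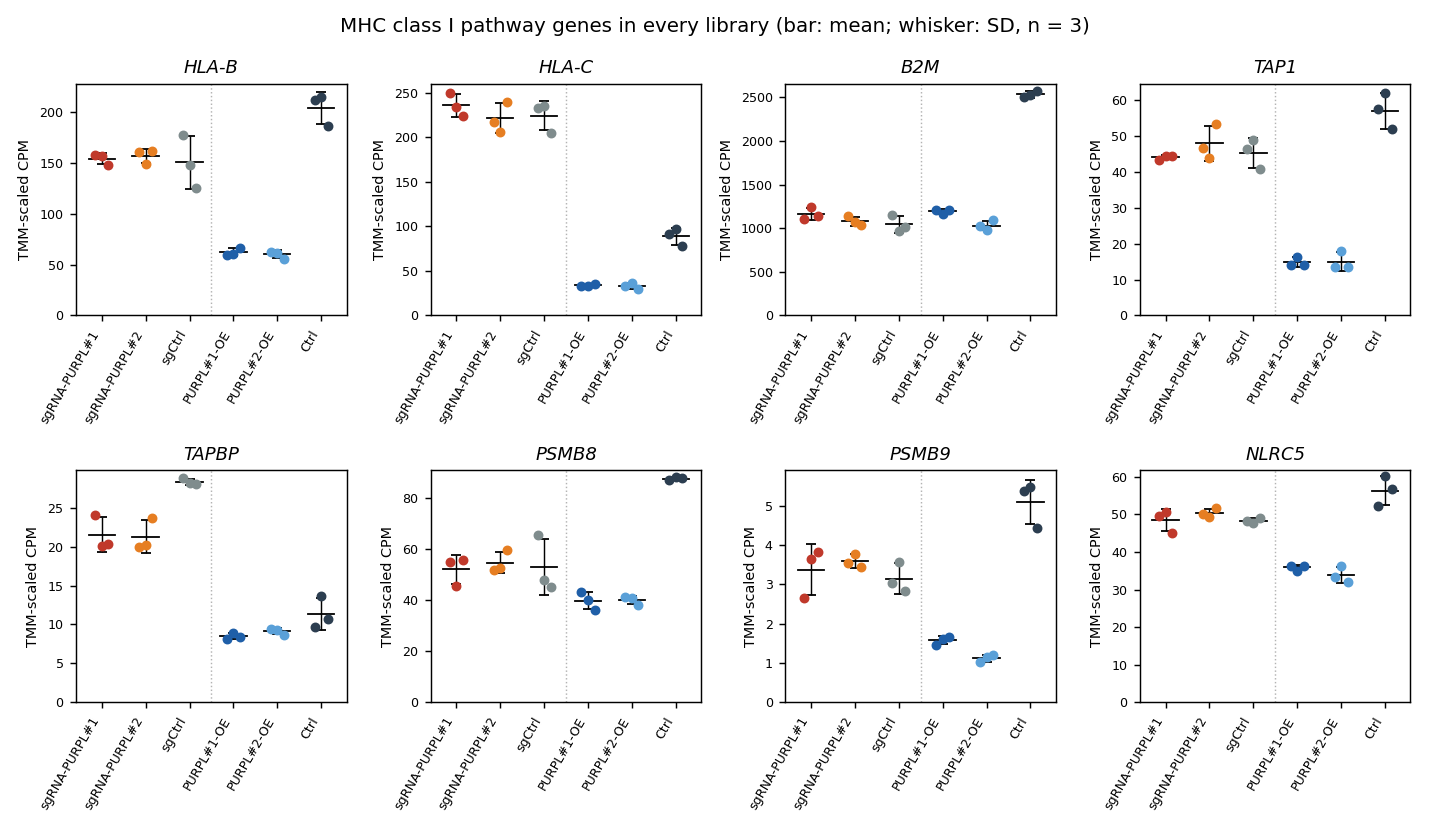
Level of each measured class I gene (vertical axis, TMM-scaled CPM within its own table) in each of the 18 libraries by group, with points for libraries, bars for means and whiskers for SD (n = 3). The OE libraries lie below all Ctrl libraries for every gene shown, while among the knockdown groups TAPBP alone lies below sgCtrl in all libraries of both guides. The share of all genes tested whose libraries separate in this way was not computed.

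The heavy chains fell to about the same extent in both OE groups. HLA-B, a heavy chain that binds peptide, had 59.1, 60.4 and 66.4 CPM in PURPL#1-OE libraries and 62.8, 61.9 and 55.6 CPM in PURPL#2-OE libraries, against 212, 215 and 186 CPM in Ctrl libraries. Its log2 fold change was -1.72 ± 0.063 (SE, adjusted p = 2.44e-19) in PURPL#1-OE and -1.77 ± 0.064 (adjusted p = 2.26e-19) in PURPL#2-OE cells. The groups did not overlap, and the level in the OE cells was 30.3% and 29.4% of that in Ctrl. HLA-C had 32.5, 33.4 and 35.2 CPM in PURPL#1-OE libraries and 33.1, 36.2 and 29.2 CPM in PURPL#2-OE libraries, against 91.4, 97.0 and 78.5 CPM in Ctrl libraries. Its log2 fold change was -1.40 ± 0.077 in PURPL#1-OE (adjusted p = 3.65e-14) and -1.44 ± 0.078 in PURPL#2-OE cells (adjusted p = 3.14e-14). Every OE library lay below the lowest Ctrl library, Ctrl replicate 3, for both heavy chains.

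B2M encodes the light chain that pairs with the classical heavy chains. In Ctrl libraries it had 2504, 2524 and 2576 CPM. It had 1213, 1158 and 1206 CPM in PURPL#1-OE libraries and 1026, 977 and 1089 CPM in PURPL#2-OE libraries. It fell by 1.09 ± 0.052 on the log2 scale in PURPL#1-OE (adjusted p = 7.11e-17) and by 1.30 ± 0.052 in PURPL#2-OE cells (adjusted p = 1.20e-18). B2M was also the single member called between the OE groups. It was lower in PURPL#2-OE than in PURPL#1-OE cells (log2 difference -0.21 ± 0.052, adjusted p = 0.00566), with no overlap of libraries. In that comparison 12.4% of all genes were called and 6.19% were called lower.

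NLRC5, the activator of class I promoters, changed less than the heavy chains did in fold. Its level was 36.2, 35.1 and 36.4 CPM in PURPL#1-OE libraries and 33.3, 36.3 and 31.9 CPM in PURPL#2-OE libraries, against 52.3, 60.1 and 56.7 CPM in Ctrl libraries. The log2 fold change was -0.65 ± 0.067 in PURPL#1-OE (adjusted p = 2.58e-09) and -0.74 ± 0.068 in PURPL#2-OE cells (adjusted p = 3.07e-10), with no overlap between OE and Ctrl libraries.

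Both immunoproteasome subunits fell. PSMB8 replaces the constitutive catalytic subunit PSMB5, and it had 43.0, 40.1 and 36.2 CPM in PURPL#1-OE libraries and 41.1, 40.9 and 38.1 CPM in PURPL#2-OE libraries, against 86.8, 88.0 and 87.7 CPM in Ctrl libraries. Its log2 fold change was -1.14 ± 0.063 in PURPL#1-OE (adjusted p = 2.22e-15) and -1.13 ± 0.063 in PURPL#2-OE cells (adjusted p = 3.83e-15). PSMB9 replaces PSMB6 and was the least counted member, with 41, 36 and 42 counts in PURPL#1-OE libraries and 19, 25 and 29 counts in PURPL#2-OE libraries, against 138, 140 and 86 counts in Ctrl libraries. In CPM this was 1.47 to 1.66 in PURPL#1-OE and 1.01 to 1.19 in PURPL#2-OE libraries, against 4.44 to 5.47 in Ctrl libraries, with no overlap between any pair of the groups. PSMB9 fell by 1.69 ± 0.18 on the log2 scale in PURPL#1-OE (adjusted p = 7.50e-09) and by 2.18 ± 0.20 in PURPL#2-OE cells (adjusted p = 2.66e-10). The difference between the OE groups, -0.49 ± 0.23 for PURPL#2-OE minus PURPL#1-OE, did not pass the test (95% interval -0.96 to -0.01, adjusted p = 0.186).

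TAP1, a chain of the peptide transporter, had 14.1, 16.4 and 14.2 CPM in PURPL#1-OE libraries and 13.4, 18.0 and 13.6 CPM in PURPL#2-OE libraries, against 57.4, 62.0 and 51.9 CPM in Ctrl libraries. The log2 fold change was -1.95 ± 0.095 in PURPL#1-OE (adjusted p = 3.45e-15) and -1.93 ± 0.096 in PURPL#2-OE cells (adjusted p = 6.22e-15), the 279th and 282nd largest of 15267 in size. TAPBP encodes tapasin, which bridges TAP and the heavy chain, and it had 8.19, 8.95 and 8.35 CPM in PURPL#1-OE libraries and 9.43, 9.30 and 8.69 CPM in PURPL#2-OE libraries, against 9.70, 13.6 and 10.7 CPM in Ctrl libraries. Its log2 fold change was -0.42 ± 0.12 in PURPL#1-OE (adjusted p = 0.00434) and -0.32 ± 0.12 in PURPL#2-OE cells (adjusted p = 0.0325). Ctrl replicate 2, the highest library, decided this call: without it the values were -0.26 (adjusted p = 0.0921) and -0.16 (adjusted p = 0.343). In PURPL#2-OE cells the call was also lost in DESeq2 (adjusted p = 0.0853) and with each PURPL#2-OE library left out in turn (adjusted p from 0.0516 to 0.10).

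Other properties of the cultures moved with overexpression. The 8 fibroblast markers summed to 27252 to 28495 CPM in PURPL#1-OE and 29470 to 30744 CPM in PURPL#2-OE libraries, against 22589 to 23054 CPM in Ctrl libraries. Of the 8, 6 were called higher in PURPL#1-OE and 7 in PURPL#2-OE cells, against 19.5% and 18.9% of all genes tested. The mitochondrial share of counts was 4.97% to 6.24% in PURPL#1-OE and 5.37% to 5.90% in PURPL#2-OE libraries, against 4.26% to 4.80% in Ctrl libraries. Their part in the fall of the class I genes was not tested. Leukocyte markers summed to at most 0.894 CPM in PURPL#1-OE and 0.833 CPM in PURPL#2-OE libraries, against at most 1.29 CPM in Ctrl libraries.

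With the knockdown guides, 1 of the 8 tested members passed the test, and it fell with both. Over the 13923 genes tested, 24.5% were called with sgRNA-PURPL#1 and 24.4% with sgRNA-PURPL#2, and 12.9% and 12.4% were called lower. A count of 1 in 8 is close to the share called lower over all genes. TAPBP had 24.1, 20.1 and 20.4 CPM in sgRNA-PURPL#1 libraries and 19.9, 20.2 and 23.7 CPM in sgRNA-PURPL#2 libraries, against 28.8, 28.2 and 28.1 CPM in sgCtrl libraries. Its log2 fold change was -0.39 ± 0.093 with sgRNA-PURPL#1 (adjusted p = 0.00186) and -0.41 ± 0.093 with sgRNA-PURPL#2 (adjusted p = 0.00133). All knockdown libraries lay below all sgCtrl libraries. TAPBP was thus lower than its control both where PURPL was lowered and where it was raised, with the reservation on Ctrl replicate 2 given above.

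The heavy chains and B2M did not pass the test with either guide. HLA-B had 158, 157 and 148 CPM in sgRNA-PURPL#1 libraries and 161, 149 and 162 CPM in sgRNA-PURPL#2 libraries, against 177, 148 and 126 CPM in sgCtrl libraries. The sgCtrl libraries spanned both knockdown groups, and the 95% intervals of the log2 fold change were -0.14 to 0.21 and -0.11 to 0.24. HLA-C had 249, 234 and 224 CPM in sgRNA-PURPL#1 libraries and 217, 206 and 239 CPM in sgRNA-PURPL#2 libraries, against 233, 235 and 205 CPM in sgCtrl libraries. Its intervals were -0.06 to 0.21 and -0.16 to 0.12. B2M had 1102, 1243 and 1144 CPM in sgRNA-PURPL#1 libraries and 1139, 1067 and 1037 CPM in sgRNA-PURPL#2 libraries, against 1148, 966 and 1018 CPM in sgCtrl libraries. The log2 fold change of B2M was 0.16 ± 0.065 with sgRNA-PURPL#1 (adjusted p = 0.0807) and 0.05 ± 0.065 with sgRNA-PURPL#2 (adjusted p = 0.630). Its 95% intervals, not adjusted for the number of genes, were 0.02 to 0.29 and -0.08 to 0.18.

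A single control library carried weight in these values. Without sgCtrl replicate 1, the highest sgCtrl library for HLA-B, B2M and PSMB8, B2M passed the test with sgRNA-PURPL#1 (log2 fold change 0.22, adjusted p = 0.0015). Without the same library HLA-B (0.20, adjusted p = 0.0173) and PSMB8 (0.23, adjusted p = 0.0361) passed with sgRNA-PURPL#2. Members called then numbered 2 with sgRNA-PURPL#1 and 3 with sgRNA-PURPL#2, TAPBP included.

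The processing and transport genes lay close to sgCtrl. TAP1 ranged from 43.4 to 44.5 CPM with sgRNA-PURPL#1 and from 43.8 to 53.2 CPM with sgRNA-PURPL#2, against 40.7 to 48.9 CPM in sgCtrl libraries. PSMB8 ranged from 45.4 to 55.6 CPM with sgRNA-PURPL#1 and from 51.7 to 59.3 CPM with sgRNA-PURPL#2, against 45.2 to 65.6 CPM in sgCtrl libraries. PSMB9 had 34 to 46 counts in sgRNA-PURPL#1 and 43 to 45 counts in sgRNA-PURPL#2 libraries, against 35 to 46 counts in sgCtrl libraries, and its interval was the widest, -0.33 to 0.52 and -0.24 to 0.61. NLRC5 was 45.1 to 50.6 CPM with sgRNA-PURPL#1 and 49.3 to 51.6 CPM with sgRNA-PURPL#2, against 47.6 to 49.0 CPM in sgCtrl libraries. The sgRNA-PURPL#2 libraries all lay above sgCtrl for NLRC5, by a log2 fold change of 0.06 ± 0.070 that did not pass the test (adjusted p = 0.58). Between the guides 0 of the 8 members were called by edgeR and by DESeq2, with 0 at an unadjusted p below 0.05 in edgeR, while 9.25% of all genes were called.

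**Figure D2:**
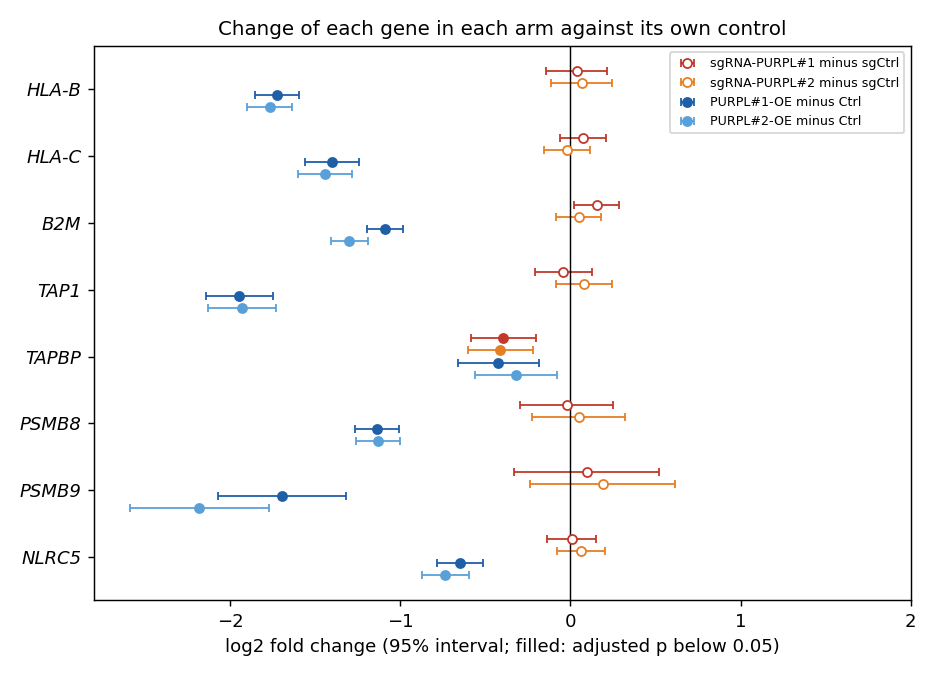
Log2 fold change of each measured class I gene (horizontal axis) with its 95% interval in the 4 comparisons with a control, filled where the adjusted p was below 0.05. The OE values lie between -2.18 and -0.32, and the knockdown values of every gene but TAPBP lie between -0.04 and 0.19.

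The difference between the experiments was tested in 1 fit of all 18 libraries, as the mean knockdown effect minus the mean overexpression effect. Of the 8 members 7 were called, all higher, while 33.6% of the 15166 genes tested were called and 18% were called higher. The log2 difference was 2.08 ± 0.23 for PSMB9, 1.96 ± 0.11 for TAP1, 1.80 ± 0.10 for HLA-B and 1.45 ± 0.093 for HLA-C. It was 1.30 ± 0.076 for B2M, 1.15 ± 0.12 for PSMB8 and 0.73 ± 0.083 for NLRC5, and the adjusted p-values of the 7 genes were at most 8.08e-08. TAPBP did not pass (-0.03 ± 0.13, 95% interval -0.29 to 0.24, adjusted p = 0.910).

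Both experiments have their own control, and the controls differed in level. On a scale common to all 18 libraries, B2M averaged 1205 ± 30 CPM in PURPL#1-OE, 1041 ± 59 CPM in PURPL#2-OE and 2565 ± 39 CPM in Ctrl cells (SD, n = 3 each). In the knockdown experiment B2M averaged 1152 ± 66 CPM with sgRNA-PURPL#1, 1068 ± 51 CPM with sgRNA-PURPL#2 and 1031 ± 90 CPM in sgCtrl cells. The PURPL#1-OE libraries lay above all sgCtrl libraries for B2M, the PURPL#2-OE libraries overlapped them, and the Ctrl libraries lay above all others. For HLA-B, TAP1, PSMB8, PSMB9 and NLRC5 the mean was highest in Ctrl, intermediate in the 3 knockdown groups, whose libraries overlapped except for NLRC5 between sgRNA-PURPL#2 and sgCtrl, and lowest in both OE groups. TAP1, for example, averaged 15.03 ± 1.3 CPM in PURPL#1-OE, 15.1 ± 2.6 CPM in PURPL#2-OE and 57.8 ± 5.1 CPM in Ctrl cells, while sgCtrl cells had 44.8 ± 4.4 CPM. HLA-C and TAPBP had another order, with Ctrl (90.1 ± 9.6 and 11.5 ± 2.1 CPM) below sgCtrl (222 ± 18 and 28.0 ± 0.41 CPM). The tables come from separate experiments, no test was made between their controls, and an experiment difference and a biological one cannot be told apart in these levels.

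Ratios of counts within a library do not depend on its scaling, and 4 were computed after the values above had been seen. The ratio of HLA-B to HLA-C counts was 1.84 ± 0.042 in PURPL#1-OE, 1.84 ± 0.11 in PURPL#2-OE and 2.30 ± 0.082 in Ctrl libraries (SD, n = 3 each). In the knockdown experiment it was 0.654 ± 0.018 with sgRNA-PURPL#1, 0.713 ± 0.032 with sgRNA-PURPL#2 and 0.669 ± 0.080 in sgCtrl libraries, so the experiments differed more than the groups within them did. PSMB8 relative to PSMB5 was 1.12 ± 0.11 in PURPL#1-OE and 1.09 ± 0.041 in PURPL#2-OE libraries, against 2.41 ± 0.17 in Ctrl libraries. PSMB9 relative to PSMB6 was 0.196 ± 0.017 in PURPL#1-OE and 0.135 ± 0.016 in PURPL#2-OE libraries, against 0.592 ± 0.026 in Ctrl libraries. Neither of these ratios, nor that of HLA-B to HLA-C, overlapped between OE and Ctrl libraries, at an exact two-sided permutation p of 0.1, the smallest that 3 against 3 libraries allow. PSMB10 relative to PSMB7, the third such pair, was 0.0233 ± 0.0026 in PURPL#1-OE and 0.0347 ± 0.0048 in PURPL#2-OE libraries, against 0.0352 ± 0.0031 in Ctrl libraries, and PURPL#2-OE overlapped Ctrl (exact p = 0.9). With the guides all of these ratios overlapped those of sgCtrl.

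**Figure D3:**
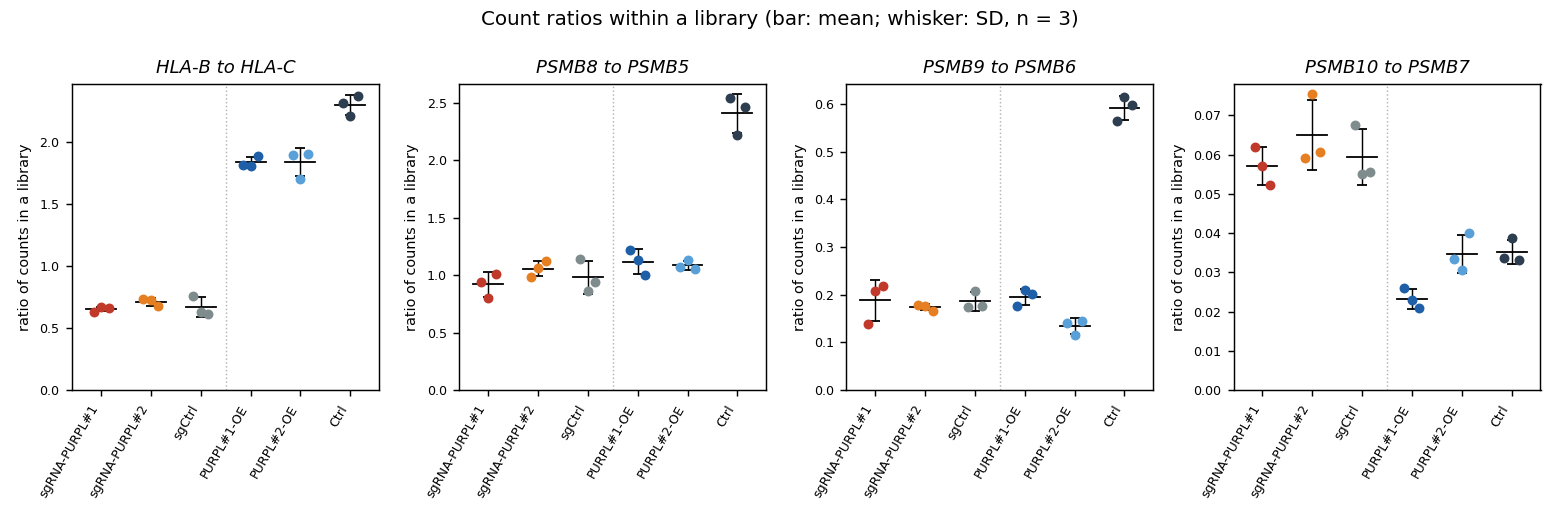
Ratio of the counts of the named genes within each library (vertical axis, no unit) by group, with points for libraries, bars for means and whiskers for SD (n = 3). The ratios of PSMB8 to PSMB5 and of PSMB9 to PSMB6 are lower in all OE libraries than in all Ctrl libraries and overlap among the knockdown groups.

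Other genes of the pathway were read from lists chosen by role. The counts of every list stand against the shares over all genes tested. In PURPL#1-OE cells 39.6% of all genes were called and 20.1% were called lower, and in PURPL#2-OE cells 38.5% and 19.6%. With sgRNA-PURPL#1 24.5% of all genes were called, and with sgRNA-PURPL#2 24.4%. Of 6 tested class I relatives, 4 fell in PURPL#1-OE and in PURPL#2-OE cells. These were HLA-F (-1.95 ± 0.20 and -2.37 ± 0.21 on the log2 scale), the stress ligand MICB (-0.96 and -0.68), HLA-E (-0.85 and -0.59), which is read by natural killer cell receptors, and MR1 (-0.20 and -0.21), which presents vitamin B metabolites. HLA-E and HLA-F are close in sequence to the classical heavy chains, so their counts are uncertain in the same way. HFE, which takes part in iron uptake, rose in PURPL#2-OE cells (0.25, adjusted p = 0.0195). With the guides, FCGRT, a receptor for antibodies, fell with sgRNA-PURPL#2 (-0.37, adjusted p = 0.0033), and the other 5 did not pass.

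Of 8 genes of peptide loading and trimming, 5 fell in PURPL#1-OE and 4 in PURPL#2-OE cells. They included the tapasin relative TAPBPL (-0.73 and -0.50) and the trimming peptidases ERAP2 (-0.62 and -0.54) and ERAP1 (-0.42 and -0.34). With the guides LNPEP, a peptidase of endosomal class I loading, fell (-0.36 and -0.30). TAPBPL had a log2 fold change of 0.54 with sgRNA-PURPL#1 (adjusted p = 0.0448) and of 0.30 with sgRNA-PURPL#2 (adjusted p = 0.311).

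Among the proteasome activator genes, the third immunosubunit PSMB10 and the assembly factor POMP, 4 of 6 fell in each OE group. PSME2 and PSME1, which form the interferon-inducible activator, and POMP fell in both. PSME2 averaged 69.9 and 86.3 CPM in PURPL#1-OE and PURPL#2-OE cells, against 198 CPM in Ctrl cells, and the log2 fold changes were -0.94 and -0.55 for PSME1 and -0.36 and -0.49 for POMP. PSMB10 fell in PURPL#1-OE cells (-1.05, adjusted p = 5.27e-04) and had -0.56 in PURPL#2-OE cells (adjusted p = 0.0512). With the guides 2 of the 6 rose and 0 fell with sgRNA-PURPL#1, and 3 rose and 1 fell with sgRNA-PURPL#2. The direction was the other one for PSME2 (0.19 and 0.44) and POMP (0.23 and 0.27), which rose with both. PSME1 rose with sgRNA-PURPL#2 (0.38). PSME4 fell in PURPL#2-OE cells (-0.35, adjusted p = 1.56e-05) and also with sgRNA-PURPL#2 (-0.25, adjusted p = 0.0082). The constitutive 20S core moved less. Of its 11 tested genes 4 fell and 1 rose in PURPL#1-OE cells and 5 fell and 1 rose in PURPL#2-OE cells, with medians of -0.10 and -0.14. Over all genes 39.6% and 38.5% were called in these groups. PSMA4 (-0.48 and -0.66), PSMB7 (-0.46 and -0.54) and PSMA3 (-0.35 and -0.40) fell and PSMA5 (0.66 and 0.43) rose. With the guides PSMB1 (0.43 and 0.34) and PSMA4 (0.29 and 0.32) rose.

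Among 13 factors known to act at class I promoters, 6 fell and 1 rose in PURPL#1-OE cells, and 3 fell and 1 rose in PURPL#2-OE cells. IRF1, an interferon-inducible activator, fell in both (-1.23 ± 0.086 and -0.67 ± 0.085), and so did IRF2 (-0.45 and -0.33) and EZH2, a repressor of class I genes in some tumours (-0.81 and -0.81). NFYB rose (0.68 and 0.61). The RFX subunit RFX5 fell in PURPL#1-OE cells (-0.23, adjusted p = 0.0163) and had -0.13 in PURPL#2-OE cells (adjusted p = 0.175). With the guides IRF1 rose (0.52 ± 0.085 and 0.58 ± 0.085), CREB1 rose (0.19 and 0.25) and EZH2 fell (-0.92 and -0.89). IRF1 thus passed the test in both experiments, in opposite directions.

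In interferon signalling, 4 of 9 tested genes fell and 3 rose in PURPL#1-OE cells, and 3 fell and 4 rose in PURPL#2-OE cells. STAT2, a transcription factor of the type I interferon response, fell in both (-0.79 and -0.72). JAK2 also fell in both (-0.44 and -0.16), whereas the feedback inhibitor SOCS3 rose (0.50 and 0.80). With the guides SOCS3 (0.34 and 0.67) and IFNGR1, a chain of the interferon gamma receptor (0.33 and 0.23), rose. Of 27 tested interferon-stimulated genes outside the class I pathway, 27 fell in each OE group, with medians of -2.98 and -3.03. By the mean over both OE groups OASL, IFI27, OAS1 and BST2 fell most. The log2 fold changes of IFI27, OAS1 and BST2 ran from -5.94 to -4.72. With the guides 12 and 21 of the 27 rose and 0 fell, with medians of 0.22 and 0.38. The medians of the 8 class I genes with the guides were 0.02 and 0.06. IFI27 (1.10 and 1.35), BST2 (1.13 and 0.86), IFIT2 (0.53 and 1.22) and IFI44L (0.64 and 1.09) had the largest means over both guides among the genes called with both. Over all genes 11.6% and 11.9% were called higher with the guides.

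**Figure D4:**
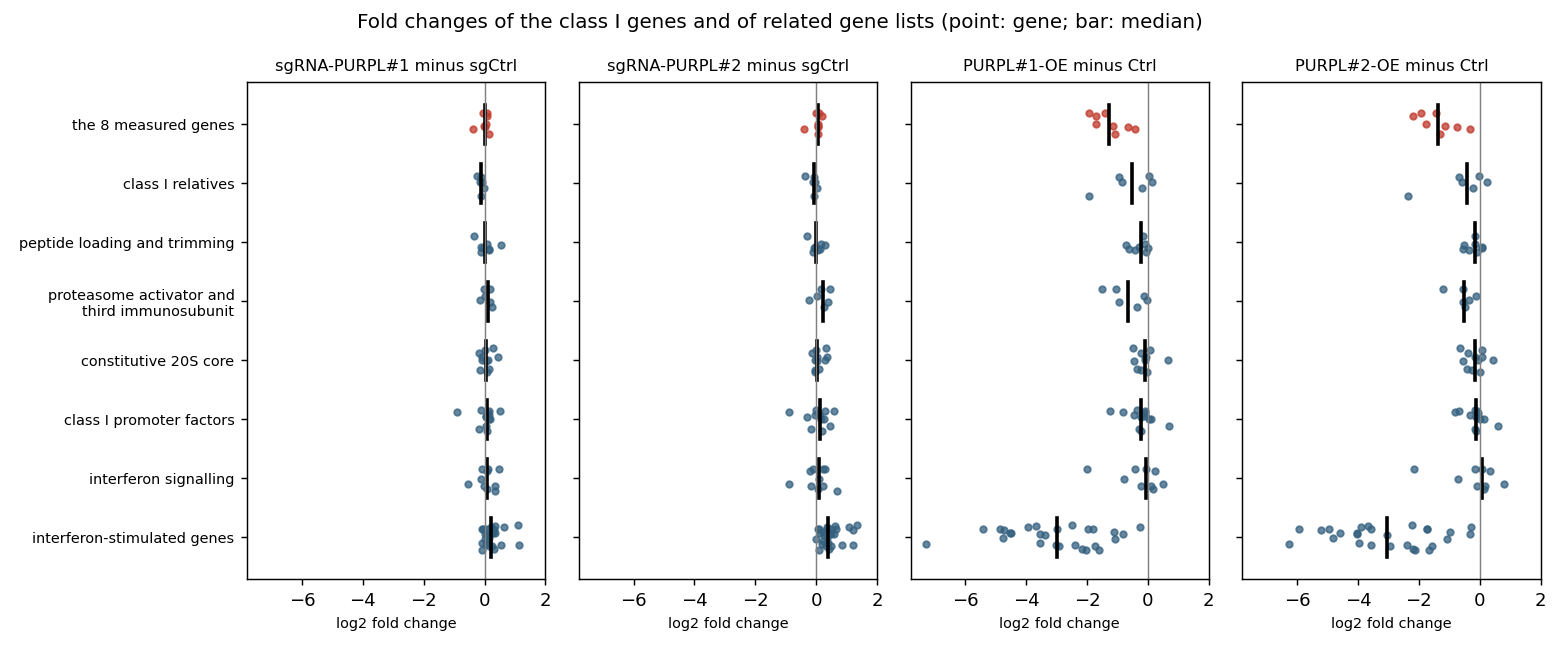
Log2 fold changes (horizontal axis) of the 8 measured class I genes and of the tested genes of 7 related lists in the 4 comparisons with a control, with points for genes and bars for medians. In the OE panels the class I genes, with medians of -1.27 and -1.37, lie between the interferon-stimulated genes at -2.98 and -3.03 and the 20S core at -0.10 and -0.14.

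Class II genes, which present peptides from outside the cell, were at low levels. HLA-DPA1 rose to 7.62 CPM with sgRNA-PURPL#1 and 6.67 CPM with sgRNA-PURPL#2, against 1.82 CPM in sgCtrl cells (log2 fold changes 2.05 ± 0.20 and 1.86 ± 0.20). CD74, the class II chaperone, was 0.349 CPM in PURPL#1-OE and 0.379 CPM in PURPL#2-OE cells, against 1.09 CPM in Ctrl cells (log2 fold changes -1.66 and -1.55). HLA-DQA1, HLA-DQB1 and HLA-DOA are listed at 0 in every library. So is PSMA2, a subunit of the proteasome core that every cell uses, so a 0 in these counts need not mean that RNA was absent. Whether the zeros of the class II genes reflect absent RNA or lost reads was not tested.

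The genes whose pattern was most like that of each member were sought by Pearson correlation over the 18 libraries, after subtracting each table's mean log2 CPM, among 9413 genes. The values describe a likeness that rests largely on the gap between the OE and Ctrl libraries, which come from 1 table. HLA-B was most like HLA-C (r = 0.988), IFI6 (0.985) and CMPK2 (0.983). HLA-C was most like HLA-B, TAP1 (0.985) and LAP3 (0.976), and TAP1 was most like HLA-C, HERC5 (0.984) and OAS2 (0.983). For B2M the first were IFI6 (0.982), TRIM38 (0.980) and RSAD2 (0.979). PSMB8 was most like HLA-B (0.962), NMI (0.960) and ISG15 (0.959), PSMB9 was most like IFIT1 (0.978), GMPR (0.974) and RSAD2 (0.973), and NLRC5 was most like SNX8 (0.975), SHFL (0.971) and IFIT3 (0.971). TAPBP had lower values and other genes, CDK2 (0.895), EXT1 (0.886) and CSPG4 (0.884). Its correlation with HLA-B was 0.537 over all 18 libraries.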

How the data were processed

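Read counts per gene were deposited by the authors as a table of 9 libraries for each experiment. Cutadapt 3.3, HISAT2 2.1.0 and featureCounts 2.0.1 are among the tools listed per the submitters' processing notes, with hg38 and GRCh38.p13 as builds. No source used here gives the annotation release, the strand setting or the treatment of multi-placed reads. The molecule label, genomic DNA, goes against the poly(A) RNA protocol in the same labels, which was followed. No molecular identifiers are described.

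Columns were mapped to groups by name. Among the overexpression columns 5 lack a replicate number (3 of PURPL#1-OE, 2 of PURPL#2-OE) and entered as unnumbered libraries. The tables were fitted separately with edgeR 4.0.16 in R 4.3.3 (TMM, filterByExpr with min.count 10 and min.total.count 15, robust quasi-likelihood test, 6 residual degrees of freedom). Benjamini-Hochberg adjustment ran over all genes tested, with a threshold of 0.05. A joint fit of 18 libraries tested the difference between the experiments. The scripts were tested on simulated data. Alternatives were RLE scaling, no filter, DESeq2 1.42.0, only the groups compared, a replicate block and each library left out, with library totals alone and upper-quartile scaling added after seeing the data. Every pair of replicates differed by more than sampling noise. The members, gene lists and tests were chosen with earlier results of these data known. All 9 members are named, and from each other list up to 4 genes with the largest mean change among those past the threshold in both groups of a table. A few genes past it in 1 group of a table (HFE, FCGRT, PSMB10, RFX5, TAPBPL, PSME1 and PSME4) and the ratios were chosen after their values were seen. The values of 1 gene of the interferon signalling list are not reported here.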

Additional observations from a re-analysis of the deposited data

Results flagged for a closer look

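The effect of perturbing PURPL differed between the experiments for 7 of the 8 tested class I genes, by a test of the difference itself (mean knockdown effect minus mean overexpression effect, edgeR's quasi-likelihood test). The log2 difference was 2.08 for PSMB9, 1.96 for TAP1, 1.80 for HLA-B, 1.45 for HLA-C, 1.30 for B2M, 1.15 for PSMB8 and 0.73 for NLRC5. Over all genes tested, 33.6% were called in this test of the difference and 18% were called higher. B2M also differed between the OE groups, by -0.21 for PURPL#2-OE minus PURPL#1-OE. In that comparison 12.4% of all genes were called and 6.19% were called lower, so 1 of 8 members is close to the share called.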

How the results depend on the processing

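Under the other scalings, without the filter, in DESeq2 and with only the compared groups fitted, all 8 members stayed below Ctrl and past the threshold in both OE groups, except TAPBP in PURPL#2-OE cells in DESeq2 (7 members called). With each library left out in turn, 7 to 8 members were called in each OE group, the lost one being TAPBP. The joint test called 7 members under every alternative run, and B2M was the 1 member called between the OE groups under each of theirs, with adjusted p-values up to 0.04996. With sgRNA-PURPL#1, 2 members were called without the filter on low counts (B2M in addition, 0.16, adjusted p = 0.0439), and 1 to 2 with a library left out. Over all genes 3292 were called with sgRNA-PURPL#1 without the filter, and 2624 to 3671 with a library left out. With sgRNA-PURPL#2 and a library left out the range was 1 to 3 members, and 2591 to 3497 genes in all. Both upper ends of the member counts came without sgCtrl replicate 1. The cause was not tested.

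In the knockdown table same-numbered libraries of different groups had correlations of their deviations between -0.0888 and 0.0386. Differently numbered ones had correlations between -0.0835 and 0.1135. No pairing by number was seen in these values, which cannot tell whether the libraries were paired by design. With the number as a replicate block 1 member was called with each guide, and 3250 and 3217 genes in all, against 3417 and 3393 without it. No paired analysis was possible for the overexpression table because 5 columns carry no number.

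Signs changed among values that had not passed the test, and in 0 that had. With 1 library left out, the log2 fold changes with sgRNA-PURPL#1 ranged from -0.076 to 0.163 for HLA-B, from -0.113 to 0.0138 for TAP1, from -0.122 to 0.151 for PSMB8, from -0.0047 to 0.241 for PSMB9 and from -0.0306 to 0.0518 for NLRC5. With sgRNA-PURPL#2 they ranged from -0.0466 to 0.197 for HLA-B, from -0.0795 to 0.0253 for HLA-C, from -0.0022 to 0.122 for B2M and from -0.0488 to 0.228 for PSMB8. For sgRNA-PURPL#2 minus sgRNA-PURPL#1 the ranges were -0.105 to 0.0777 for TAPBP, -0.0126 to 0.123 for PSMB8 and -0.0536 to 0.191 for PSMB9. For PURPL#2-OE minus PURPL#1-OE they were -0.0786 to 0.0087 for HLA-B, -0.114 to 0.0426 for HLA-C, -0.132 to 0.0861 for TAP1 and -0.0551 to 0.0712 for PSMB8. The joint difference of TAPBP ranged from -0.185 to 0.0774, and on library totals alone it was 0.0164. PSMB9, with 19 to 140 counts a library, had the fewest counts of the 8 members, and TAP2 is not measured.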
